A study of Mus musculus with 6 samples.

Results

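CD29hi CD61+ breast cancer stem cells (BCSCs, P1) were compared with the bulk tumor cells (P0) sorted from the same 2 mammary tumors. The cells came from spontaneous tumors of the FVBN mouse strain, in which the MMTV promoter drives the polyoma virus middle T antigen in the mammary epithelium. Both populations carry this oncogene. Dissociated tumor cells were stained for CD29, CD61 and ALDH, and the bulk cells are what remained once the CD29hi CD61+ and the ALDH+ cells had been sorted away. The comparison used 4 of the 6 libraries of the study, 1 per population and tumor. Whether the tumors grew in 1 mouse is not stated. Genes with a symbol entered if they reached 1 RPKM (a read count corrected for the length of the gene and the depth of the library) in at least 2 of the 4 libraries, and 11966 of 14889 genes did so. A gene under 1 RPKM in both P0 libraries thus entered through P1 alone and could only appear as higher, and the reverse held for P1.

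The mammary duct has an inner layer of luminal cells and an outer layer of basal, myoepithelial cells. Basal cells contain the keratins 5, 14 and 17, contract through smooth muscle actin, and sit on the basement membrane through hemidesmosomes built on collagen XVII and the integrin of the alpha 6 and beta 4 chains. CD29 is the beta 1 integrin chain, encoded by *Itgb1*, and CD61 is the beta 3 chain, encoded by *Itgb3*. A high level of CD29 on the surface is used to enrich basal mammary cells, and CD61 has been used to enrich luminal progenitors and tumor-propagating cells in mouse mammary tumor models.

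The 4 libraries held 19443201 to 48008802 reads. The tumors differed in a way that touches every result. Genes without a single read numbered 3288 in P0 and 1946 in P1 of tumor 1, against 446 and 359 in tumor 2, although the libraries of tumor 1 were the deeper ones. Among tested genes, 2485 stood at least 2-fold higher and 992 at least 2-fold lower in P1 of tumor 1, against 499 and 216 in tumor 2. Across the tested genes, which are not independent, the differences between populations in the 2 tumors had a Pearson correlation of 0.0123. Of all tested genes, 59.6% had a positive log2 fold change. The median log2 fold change over all tested genes was 0.11, with median log2 differences of 0.16 in tumor 1 and 0.03 in tumor 2. Shifting the 4 libraries to the same median moved the median log2 fold change by 0.14. Under that shift 44 of the 45 genes named by rule kept their sign, the exception being *Itgb3*. Apart from *Itgb1* and *Itgb3*, the named genes had log2 fold changes of at most -1.03 or at least 1.64. A shift of that size could not turn their sign, so the count was set by the naming rule. Differences are given on the log2(RPKM + 1) scale, which understates the change of genes at low RPKM.

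With the tumor as a block, 24 genes were higher in P1 at an adjusted p under 0.05 (0.201% of the tested genes) and 7 were lower (0.0585%). Of the 24, 16 were genes such as *Sparc*, *Krt5*, *Bgn* and *Postn*, and the other 8 were microRNA and small nucleolar RNA genes, as were all 7 lower genes. Before adjustment, 603 genes passed a p of 0.05 as higher (5.04%) and 132 as lower (1.1%), a split of 82.0% higher that became 66.0% with the libraries shifted to the same median. At least a 2-fold difference in both tumors was found for 209 genes in the higher direction (1.75%) and for 34 in the lower (0.284%). Of the 603 genes, 375 were under 1 RPKM in P0 of tumor 1, and 226 reached 1 RPKM in all 4 libraries. Both P1 values lay above both P0 values for 18.6% of tested genes, and below both for 10%. The calls rested on the settings of the test. There were 0 calls without the block, with a pseudocount of 0.1 or with all 6 libraries in the model, where 274, 317 and 339 genes were still higher and 53, 68 and 77 lower at an unadjusted p under 0.05, and voom on the recovered reads called only *Sparc*, *Postn* and *Fn1* (0.0251%). An exact permutation test of a single gene cannot go below 0.333 with 2 libraries against 2, or below 0.5 with the 2 libraries of each tumor paired. The calls thus depend on the spread that limma shares between genes.

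**Figure D1:**
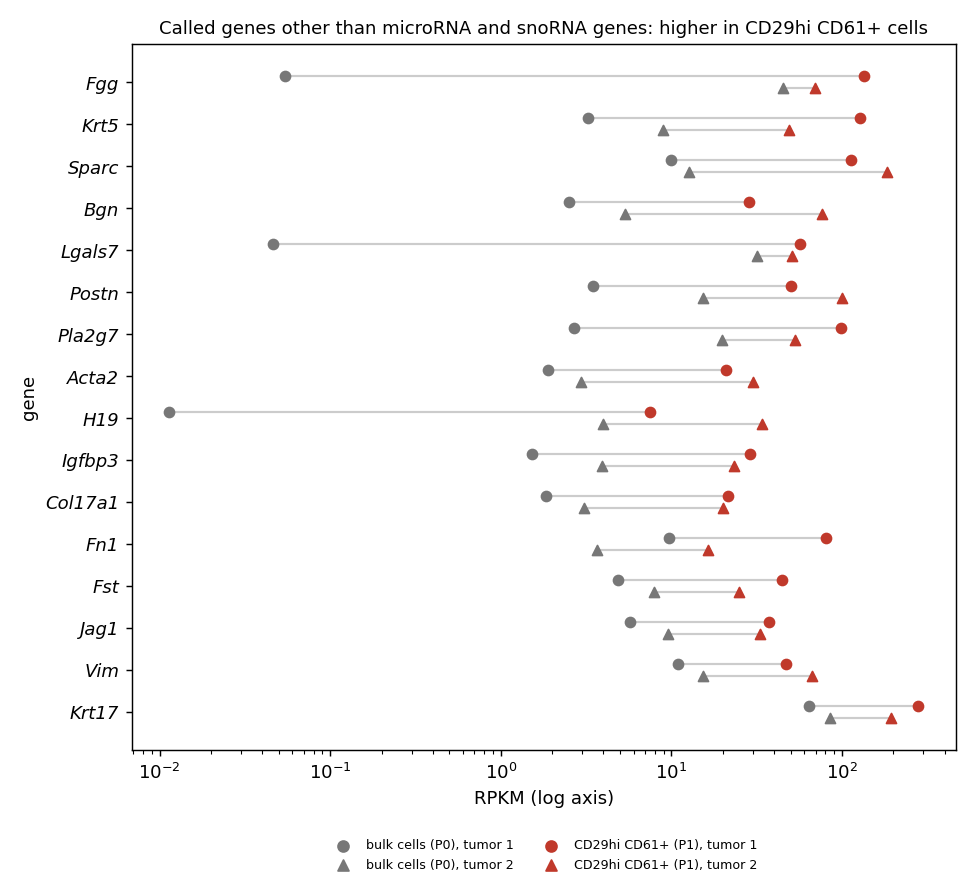
RPKM on a log axis of the 16 called genes that are not microRNA or small nucleolar RNA genes, with P0 in grey, P1 in red, circles for tumor 1 and triangles for tumor 2, and a line joining the populations of a tumor. Every red point lies to the right of the grey point of its tumor, and *Fgg*, *Lgals7* and *H19* have long lines in tumor 1 because P0 of that tumor was at 0.0544, 0.0463 and 0.0114 RPKM.

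The basal genes *Krt5*, *Krt17* and *Acta2* were higher in P1 of both tumors. *Krt5*, the keratin of the basal layer, read 3.23 RPKM in P0 and 128 in P1 of tumor 1, and 8.87 and 48.8 in tumor 2. It rose by a log2 fold change of 3.63 (SE 0.49, adjusted p = 0.000309 from limma). *Krt17*, a keratin of basal and stressed epithelium, was already abundant in bulk cells, and rose from 64.3 to 279 RPKM in tumor 1 and from 85.3 to 194 in tumor 2 (log2 fold change 1.64, SE 0.35, adjusted p = 0.0400). *Acta2* is the gene of smooth muscle actin, with which myoepithelial cells contract. Its RPKM went from 1.90 to 21.0 in tumor 1 and from 2.96 to 30.2 in tumor 2, a ratio of 11.1 and 10.2 (log2 fold change 2.95, SE 0.55, adjusted p = 0.0117). The populations did not overlap for these 3 genes, which were already called as higher. Both P1 values lay above both P0 values for 18.6% of all tested genes.

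Of the 17 tested genes on the list of basal keratins and contractile genes, 10 were higher at an unadjusted p under 0.05 (58.8%, beside 5.04% of all tested genes) and none lower, 9 were at least 2-fold higher in both tumors (beside 1.75% of all tested genes), and the median log2 fold change was 1.24, at 1.02 in tumor 1 and 1.14 in tumor 2. *Krt14*, which pairs with keratin 5, read 224 RPKM in P0 and 456 in P1 of tumor 1, and 245 and 675 in tumor 2 (log2 fold change 1.24, SE 0.36, adjusted p = 0.239). *Krt15*, *Krt6a*, *Krt6b* and *Krt16* had log2 fold changes of 2.42, 2.00, 1.64 and 1.04. *Krt15* stood at 0.0321 RPKM in P0 of tumor 1. *Krt6a* and *Krt6b* are near-identical copies, so reads may have been split between them. The contractile genes were divided. *Myl9* and *Mylk*, which encode a myosin light chain and the kinase of that chain, had log2 fold changes of 2.25 and 1.65 from low levels, with no reads in P0 of tumor 1. Both were under 1 RPKM in both P0 libraries, so they entered through P1 alone and could only appear as higher. *Tagln*, *Smtn* and *Tpm2* went opposite ways in the 2 tumors, and *Tpm1*, the tropomyosin gene with the highest level of the contractile genes listed, stood at 149 to 196 RPKM in all 4 libraries with a log2 fold change of -0.01.

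The basal transcription factor and adhesion genes differed by gene and by tumor. *Trp63*, which encodes the basal cell factor p63, read 5.72 RPKM in P0 and 19.0 in P1 of tumor 1, and 2.48 and 6.57 in tumor 2 (log2 fold change 1.35, SE 0.59, adjusted p = 0.705). *Pdpn*, which encodes the surface glycoprotein podoplanin, had no reads in P0 of tumor 1 and 0.643 RPKM in P0 of tumor 2, against 8.89 and 7.99 in P1 (log2 fold change 2.88, SE 0.68, adjusted p = 0.0774). It entered through P1 alone. *Snai2* and *Dsg3*, which encode the factor Slug and a desmosomal cadherin, were higher mainly in tumor 1, by 3.71 and 3.51 on the log2 scale against 0.66 and 0.20 in tumor 2. In P0 of tumor 1 they stood at 0.0961 and 0.0134 RPKM. *Cdh3*, the gene of P-cadherin, had an RPKM ratio of 2.91 in tumor 1 and 2.79 in tumor 2, without passing an unadjusted p of 0.05 (log2 fold change 1.19, SE 0.65). Of the 14 tested genes on this list, *Pdpn*, *Snai2*, *Dsg3* and *Trp63* were the 4 higher at an unadjusted p under 0.05 (28.6%, beside 5.04% of all tested genes), and none was lower. *Pdpn*, *Trp63* and *Cdh3* were the 3 at least 2-fold higher in both tumors (beside 1.75% of all tested genes). *Sox9*, *Sox10* and *Egfr* had log2 fold changes of 0.07, 0.12 and -0.21.

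Among hemidesmosome genes, those higher at an unadjusted p under 0.05 were *Col17a1*, *Lama3* and *Col7a1*. *Col17a1*, the transmembrane collagen of the hemidesmosome, rose from 1.84 to 21.5 RPKM in tumor 1 and from 3.06 to 20.0 in tumor 2 (log2 fold change 2.68, SE 0.57, adjusted p = 0.0369). *Lama3*, which encodes the alpha 3 chain of the hemidesmosome laminin, had a log2 fold change of 1.83, and *Col7a1*, which encodes the collagen of anchoring fibrils, had 1.42. *Lamb3*, which encodes the beta 3 chain of that laminin, had 0.37. *Itga6* had 0.18, and *Itgb4*, its hemidesmosome partner, read 129 RPKM in P0 and 63.2 in P1 of tumor 1 against 55.8 and 62.9 in tumor 2 (log2 fold change -0.43, SE 0.37). In all, 3 of the 10 tested genes of this list were higher at an unadjusted p under 0.05 (30%, beside 5.04% of all tested genes). The same number was at least 2-fold higher in both tumors (beside 1.75% of all tested genes), and none was lower.

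The mRNAs of the sort markers themselves overlapped between the populations. *Itgb1* read 182 RPKM in P0 and 258 in P1 of tumor 1 but 251 and 217 in tumor 2, and *Itgb3* read 17.6 and 13.2 in tumor 1 but 9.29 and 13.9 in tumor 2. The direction thus differed between tumors for both genes, whose log2 fold changes were 0.14 and 0.07 (SE 0.35 and 0.49). The sort reads protein at the cell surface, so these values do not test it. No integrin gene of the 16 tested had an unadjusted p under 0.05, and their median log2 fold change was 0.11, equal to that of all tested genes to 2 decimals. *Itgav*, the alpha chain partner of CD61, read 211 RPKM in P0 and 143 in P1 of tumor 1, and 166 and 115 in tumor 2 (log2 fold change -0.54, SE 0.34).

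Of all 20 lists, that of the interstitial matrix had the largest share of members higher at an unadjusted p under 0.05. Of its 36 measured genes, 29 were tested, and 26 had a positive log2 fold change (89.7%, beside 59.6% of all tested genes). At an unadjusted p under 0.05, 19 were higher (65.5%, beside 5.04% of all tested genes) and none was lower. At least 2-fold higher in both tumors were 14 (beside 1.75% of all tested genes). The median was 1.38, at 1.28 in tumor 1 and 1.64 in tumor 2. *Col6a1*, *Dcn*, *Col5a2*, *Fbn1* and *Col8a1* were under 1 RPKM in both P0 libraries. They entered through P1 alone and could only appear as higher, so these values rest in part on the entry rule. *Sparc*, a collagen-binding glycoprotein gene, had the lowest adjusted p of all genes. Its RPKM was 11.4 times that of bulk cells in tumor 1, at 113 against 9.97, and 14.3 times in tumor 2, at 182 against 12.7 (log2 fold change 3.56, SE 0.37, adjusted p = 7.92e-06 from limma). *Bgn*, which encodes the small leucine-rich proteoglycan biglycan, rose from 2.50 to 28.5 RPKM in tumor 1 and from 5.38 to 75.9 in tumor 2 (log2 fold change 3.33, SE 0.48, adjusted p = 0.000402). *Postn*, the gene of periostin, a matricellular protein that binds integrins and collagen, rose from 3.49 to 50.3 RPKM in tumor 1 and from 15.3 to 100.3 in tumor 2 (log2 fold change 3.07, SE 0.42, adjusted p = 0.000309). *Fn1*, the gene of fibronectin, rose from 9.68 to 80.8 RPKM in tumor 1 and from 3.64 to 16.5 in tumor 2 (log2 fold change 2.42, SE 0.47, adjusted p = 0.0166).

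Collagens I and III were low in bulk cells and differed between populations mostly in tumor 2. *Col1a1*, *Col1a2* and *Col3a1*, which encode their chains, were higher by 2.91, 3.54 and 3.13 on the log2 scale in tumor 2 and by 0.53, 1.01 and 0.50 in tumor 1. *Col1a2*, for instance, read 1.47 RPKM in P0 and 27.7 in P1 of tumor 2, but 0.451 and 1.92 in tumor 1. *Tnc*, the gene of tenascin C, stood at 34.7 RPKM in P1 of tumor 1, 2.89 times its bulk level, and at 24.4 in P1 of tumor 2, 5.91 times its bulk level (log2 fold change 1.88, SE 0.48, adjusted p = 0.123). *Sparcl1*, a relative of *Sparc*, was at 16.6 and 52.5 RPKM in tumor 1 and 30.3 and 59.1 in tumor 2 (log2 fold change 1.27, SE 0.39, adjusted p = 0.276). The remaining genes of the list with an unadjusted p under 0.05 were *Col6a1*, *Dcn*, *Col5a2*, *Vcan*, *Fbn1*, *Col2a1*, *Fbln2*, *Col12a1*, *Eln* and *Col11a1*, at log2 fold changes of 1.06 to 2.20. Among these, *Col6a1*, *Dcn*, *Col5a2*, *Vcan* and *Fbn1* were under 1 RPKM in P0 of tumor 1, the library with 3288 genes without reads. On the whole list that held for 8 of the 19 genes higher at that p. *Col8a1* did not pass that p but was at least 2-fold higher in both tumors, at 1.28 and 1.21. The most abundant matrix genes of the tumor behaved otherwise. *Spp1* (osteopontin), *Thbs1* (thrombospondin 1) and *Cyr61*, at 455 to 1702 RPKM over the 4 libraries, had log2 fold changes of 0.20, -0.43 and -0.11.

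Connective tissue cells make many of these matrix proteins, so the marker genes of other cell types are given here. In P0 of tumors 1 and 2 and then in P1 of tumors 1 and 2, the summed level of the fibroblast markers other than matrix was 4.60, 3.51, 6.74 and 12.8 RPKM, with 11 of the 12 listed genes measured, 9, 5, 9 and 1 of them without reads, and *Pdgfra* and *Scara5* as the 2 that passed the minimum. In the same order the 5 measured pericyte markers summed to 1.84, 24.1, 15.6 and 26.9 RPKM, most of it *Mcam* where it had reads, and the 13 measured macrophage markers to 3.19, 22.6, 8.21 and 43.1 RPKM, with no reads for 12 and 10 of them in P0 and P1 of tumor 1. *Aif1*, a macrophage gene, had no reads in P0 and stood at 2.09 and 2.01 RPKM in P1, and *Rgs5*, a pericyte gene, had none in P0 and stood at 1.33 and 1.38 in P1. *Aif1*, *Rgs5* and *Pdgfra* entered through P1 alone and could only appear as higher. The other tested macrophage markers, *Cd68*, *Fcer1g* and *Lyz2*, had log2 fold changes of 1.38, 0.19 and 0.02. *Lyz2* was lower in P1 of tumor 1, and *Fcer1g* had no reads in that tumor. The other tested pericyte markers, *Mcam* and *Abcc9*, had 1.87 and 0.20, and *Abcc9* was lower in P1 of tumor 2. The 7 measured endothelial markers summed to 1.35 to 3.99 RPKM, the 2 measured lymphocyte markers to at most 2.23, the 5 measured platelet markers to 4.32 to 15.8, and *Alas2*, the 1 erythroid marker measured, was at 0 to 1.62. The fibroblast, pericyte and macrophage sums were thus higher in P1 of both tumors, and their part in the matrix result was not tested. In these bulk libraries, fewer cells of a type and less RNA per cell cannot be told apart.

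Basement membrane genes had fewer differences. Of 17 tested, 3 were higher at an unadjusted p under 0.05 (17.6%, beside 5.04% of all tested genes), none was lower, and the median log2 fold change was 0.44. *Col4a1* and *Col4a2*, the chains of the common collagen IV network, had log2 fold changes of 1.72 and 2.15. *Col4a2* read 1.76 RPKM in P0 and 7.27 in P1 of tumor 1, and 2.14 and 19.5 in tumor 2 (SE 0.63, adjusted p = 0.251). *Lamb1* had 1.34, while *Lama5*, *Lamb2* and *Hspg2* had -0.04, -0.16 and -0.01.

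Of 25 tested genes for matrix proteases, their inhibitors and collagen-modifying enzymes, 5 were higher at an unadjusted p under 0.05 (20%, beside 5.04% of all tested genes) and none was lower. *Mmp2*, which encodes gelatinase A, had 1 read in P0 of tumor 1 and stood at 0.981 RPKM in P0 of tumor 2, against 5.99 and 17.4 in P1 (log2 differences of 2.79 and 3.21, adjusted p = 0.0507). It entered through P1 alone. *Timp3*, a matrix-bound inhibitor gene, read 14.9 and 62.6 RPKM in P0 and P1 of tumor 1 and 28.6 and 47.9 in tumor 2 (log2 fold change 1.36, SE 0.40, adjusted p = 0.259). *Timp1*, *Plod2* and *Mmp13* had 0.86, 1.00 and 2.01, the last mainly from tumor 1, at 3.51 against 0.52. *Mmp13* stood at 0.0206 RPKM in P0 of tumor 1. *Mmp3* was at least 2-fold higher in both tumors, at 1.12 and 1.48, without passing that p. *Mmp14*, the activator of gelatinase A, was -0.10 in tumor 1 and 1.39 in tumor 2.

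**Figure D2:**
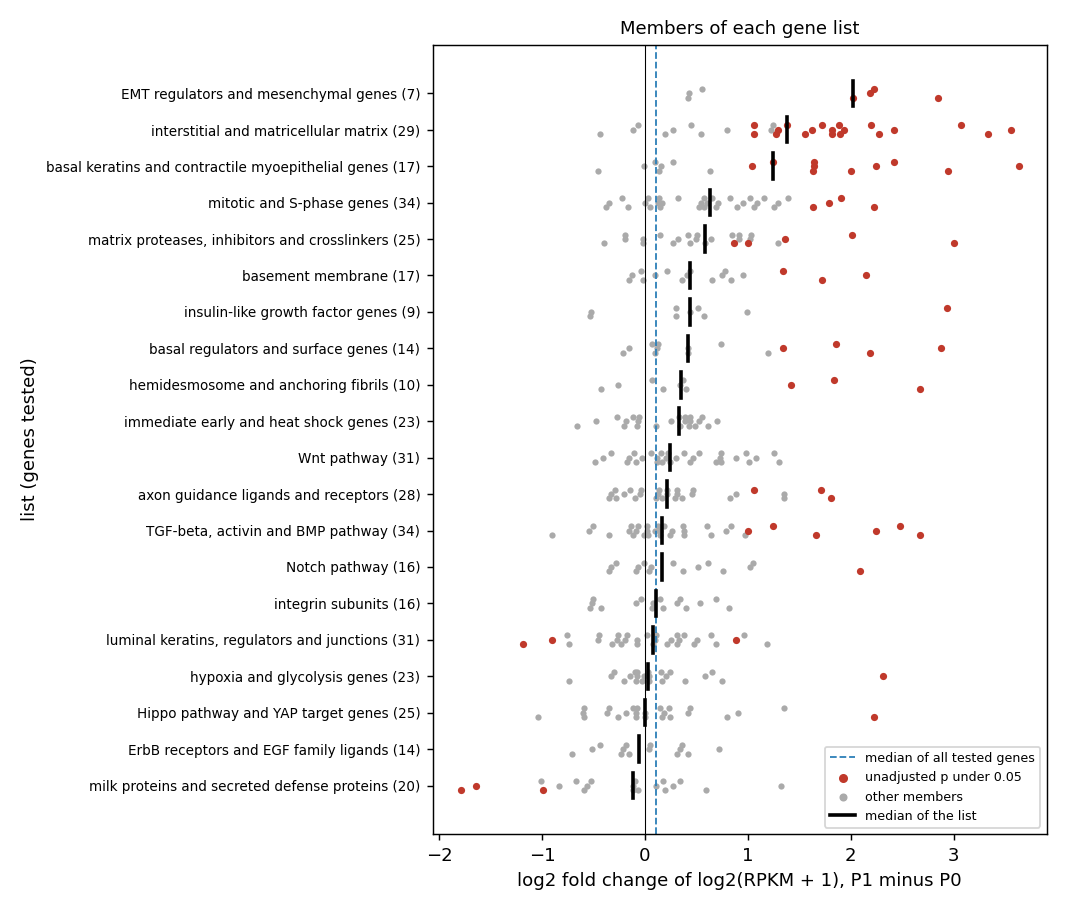
Log2 fold change of P1 against P0 for each tested member of 20 gene lists, in red where the unadjusted p was under 0.05, with the median of each list as a black bar and that of all tested genes, 0.11, as a dashed line. The matrix, basal keratin and mesenchymal lists have medians of 1.38, 1.24 and 2.02, while the Wnt, integrin, ErbB and immediate early lists have no red point.

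In the signaling lists few members passed an unadjusted p of 0.05. *Jag1*, a Notch ligand, rose from 5.76 to 37.2 RPKM in tumor 1 and from 9.60 to 32.9 in tumor 2 (log2 fold change 2.09, SE 0.46, adjusted p = 0.0479). It was the 1 gene of 16 tested Notch genes with an unadjusted p under 0.05, a share of 6.25% beside 5.04% of all tested genes. The receptors *Notch1*, *Notch2* and *Notch3* had log2 fold changes of -0.35, 0.37 and 0.04, and the target *Hes1* had -0.09 at 107 to 126 RPKM, while the target *Hey1* had 1.05 (SE 0.66).

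Of the 34 tested genes of the TGF-beta, activin and BMP list, 6 were higher at an unadjusted p under 0.05 (17.6%, beside 5.04% of all tested genes) and none lower. *Fst* encodes follistatin, which binds and blocks activin, and rose from 4.87 to 44.3 RPKM in tumor 1 and from 7.87 to 24.7 in tumor 2 (log2 fold change 2.24, SE 0.49, adjusted p = 0.0425). *Inhba*, which encodes the activin A subunit, had 1.25 (SE 0.49, adjusted p = 0.566), with values of 14.8 and 29.8 RPKM in tumor 1 and 4.20 and 14.0 in tumor 2. *Tgfbi*, a matrix protein gene induced by TGF-beta, read 2.38 and 10.8 RPKM in tumor 1 and 0.864 and 20.8 in tumor 2 (log2 fold change 2.68, SE 0.64, adjusted p = 0.0809). *Fstl1*, *Id1* and *Ltbp2* were the other 3 that passed, all higher. *Fstl1* and *Id1* had no reads in P0 of tumor 1. The receptor genes *Tgfbr1* and *Tgfbr2* had -0.13 and 0.02, *Smad2*, *Smad3* and *Smad4* had 0.24, -0.07 and 0.37, and the ligand genes *Tgfb1* and *Tgfb2* had 0.13 and -0.16.

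*Igfbp3*, whose protein binds insulin-like growth factors in the circulation and the matrix, rose from 1.52 to 28.8 RPKM in tumor 1 and from 3.89 to 23.3 in tumor 2 (log2 fold change 2.94, SE 0.56, adjusted p = 0.0137). The more abundant *Igfbp5* stood at 481 and 571 RPKM in tumor 1 and 424 and 790 in tumor 2 (log2 fold change 0.57, SE 0.38), and *Igfbp2* and *Igfbp4* went opposite ways in the tumors. *Igf1r* and *Igf2r*, the receptor genes, had 0.44 and -0.52. No gene of the 31 tested Wnt genes or of the 14 tested ErbB genes had an unadjusted p under 0.05. The Wnt genes *Sfrp2* and *Fzd8*, a secreted inhibitor and a receptor, were at least 2-fold higher in both tumors, from 1.51 RPKM or less in P0. *Ctnnb1*, the gene of beta-catenin, had 0.11 at 198 to 229 RPKM, and *Erbb2* and *Erbb3* had 0.05 and -0.70.

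Of the 25 tested Hippo pathway and YAP target genes, *Axl* was the 1 higher at an unadjusted p under 0.05, a share of 4%, below the 5.04% of all tested genes. *Axl* encodes a receptor tyrosine kinase and read 0.570 and 10.1 RPKM in tumor 1 and 1.66 and 7.20 in tumor 2 (log2 fold change 2.23, SE 0.67, adjusted p = 0.273). *Ctgf* was higher in tumor 1 alone, by 1.75 against -0.16, *Cyr61* was level, and *Ankrd1* had -1.04. *Yap1* and *Wwtr1* had 0.25 and -0.09. Among 28 tested axon guidance genes, 3 were higher at an unadjusted p under 0.05 (10.7%, beside 5.04% of all tested genes) and none was lower. These were *Efna1* and *Efna5*, the genes of 2 ephrin ligands, and *Ntn4*, the gene of a laminin-binding netrin. Their log2 fold changes were 1.81, 1.06 and 1.72, with *Ntn4* at 0.0115 RPKM in P0 of tumor 1. *Epha2*, an ephrin receptor gene, had -0.30.

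The intermediate filament gene *Vim* rose from 10.9 to 46.7 RPKM in tumor 1 and from 15.4 to 66.5 in tumor 2, a ratio of 4.29 and 4.31 (log2 fold change 2.02, SE 0.40, adjusted p = 0.0188). *S100a4*, a calcium-binding protein gene of mesenchymal cells, had a log2 fold change of 2.85 (SE 0.69, adjusted p = 0.0968), with 0.0554 and 17.3 RPKM in tumor 1 and 2.27 and 8.73 in tumor 2. Of the 12 measured genes on this mesenchymal list 7 were tested. Of these, 4 were higher at an unadjusted p under 0.05 (57.1%, beside 5.04% of all tested genes) and none was lower. All of the 4 but *Vim* were under 1 RPKM in P0 of tumor 1. The factors *Snai1*, *Zeb1* and *Foxc1* had 0.56, 0.43 and 0.42, and *Snai1* and *Zeb1* went opposite ways in the tumors. Epithelial adhesion genes were abundant in the same libraries. *Cdh1*, the gene of E-cadherin, read 399 and 316 RPKM in tumor 1 and 421 and 404 in tumor 2 (log2 fold change -0.20, SE 0.36), and *Epcam* read 1220 and 1957 in tumor 1 and 1835 and 1950 in tumor 2 (0.38, SE 0.46).

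Cell cycle genes differed mainly in tumor 1. The 34 tested mitotic and S-phase genes had a median log2 difference of 1.09 in tumor 1 and 0.24 in tumor 2, beside 0.16 and 0.03 over all tested genes. Of the 34, 29 had a positive log2 fold change (85.3%, beside 59.6% of all tested genes). *Ube2c*, *Cdc20*, *Ccnb1* and *Plk1*, genes of mitotic entry and exit, had an unadjusted p under 0.05, all higher (11.8% of the 34, beside 5.04% of all tested genes). All of them but *Ccnb1* were under 1 RPKM in P0 of tumor 1. *Ube2c* read 0.326 RPKM in P0 and 31.2 in P1 of tumor 1 but 17.2 and 15.5 in tumor 2, whereas *Ccnb1* was higher in both tumors, at 1.90 and 14.6 RPKM and at 2.15 and 5.98. *Aurka* was at least 2-fold higher in both tumors, at 1.34 and 1.17, from 0.868 RPKM or less in P0. It entered through P1 alone and could only appear as higher. *Mki67*, a marker of cycling cells, had 0.05 (SE 0.57), with 8.74 and 11.6 RPKM in tumor 1 and 6.67 and 5.31 in tumor 2. Of these 34 genes 8 were under 1 RPKM in P0 of tumor 1, the library with 3288 genes without reads, and the part of that library in the result was not tested.

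Stress genes mostly did not pass. Of the 23 tested immediate early and heat shock genes none had an unadjusted p under 0.05, and *Fos*, *Jun* and *Hspa8* had log2 fold changes of 0.56, 0.11 and 0.34. Of the 23 tested hypoxia and glycolysis genes, *Angptl4*, the gene of a secreted inhibitor of lipoprotein lipase, was the 1 that differed at that p (4.35%). It read 4.14 and 26.1 RPKM in P0 and P1 of tumor 1 and 2.49 and 15.4 in tumor 2 (log2 fold change 2.32, SE 0.55, adjusted p = 0.0774). *Vegfa* had 0.75, and *Pgk1*, *Ldha* and *Slc2a1*, all induced by hypoxia, had -0.01, 0.04 and -0.07.

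**Figure D3:**
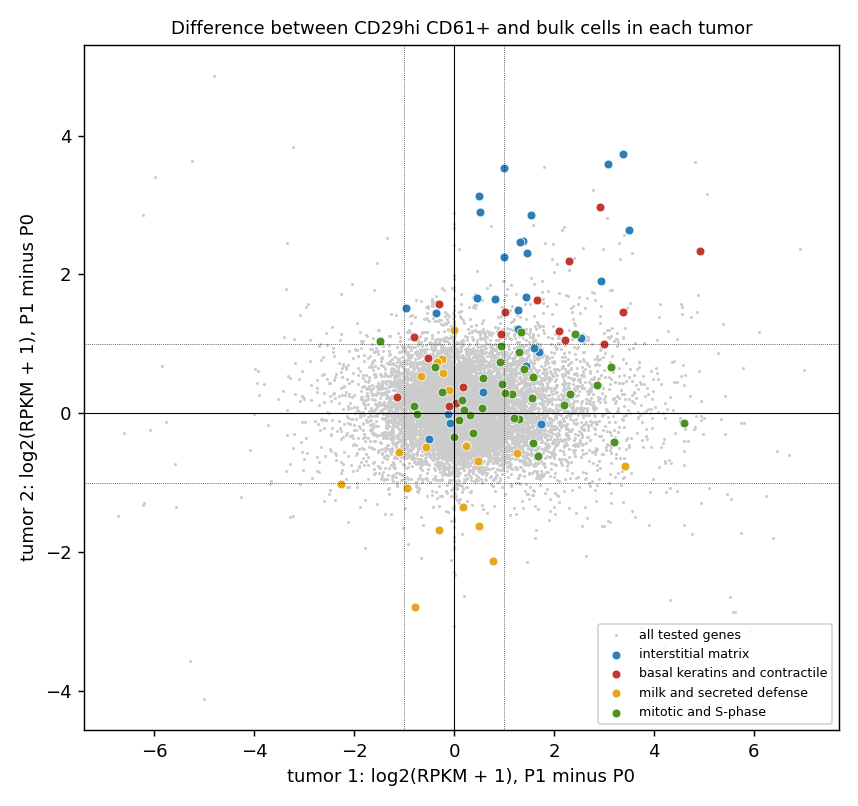
Difference of log2(RPKM + 1) between P1 and P0 in tumor 1 (horizontal) and tumor 2 (vertical) for all 11966 tested genes in grey, with 4 lists in color and dotted lines at a 2-fold difference. The spread is wider in tumor 1, interstitial matrix and basal keratin genes extend into the upper right, mitotic and S-phase genes extend mainly to the right, and milk genes lie mostly at or below 0 in tumor 2.

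The luminal keratin genes *Krt8* and *Krt18* had the highest levels of the keratins listed in P1 too. *Krt8* stood at 3062 and 3050 RPKM in P1 against 3548 and 3809 in P0, and *Krt18* at 4723 and 3396 against 6811 and 4356, with log2 fold changes of -0.27 and -0.44 (SE 0.53 and 0.58). The basal *Krt14*, at 456 and 675 RPKM in P1, lay below both, and above the luminal *Krt19*, at 448 and 369, on this scale of reads per length. The regulators *Elf5*, *Gata3* and *Ehf* had 0.08, 0.31 and 0.33, and the progenitor marker *Kit* had 0.11. Over the 31 tested luminal genes the median of the log2 fold changes was 0.08, which became -0.07 with the libraries shifted to the same median.

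Of the 31 tested luminal genes, 2 were lower at an unadjusted p under 0.05, beside 1.1% of all tested genes. Both encode claudins of tight junctions. *Cldn4*, the gene of claudin 4, read 1948 and 682 RPKM in P0 and P1 of tumor 1 and 2140 and 1174 in tumor 2 (log2 fold change -1.19, SE 0.44, adjusted p = 0.504). *Cldn1* read 431 and 253 in tumor 1 and 311 and 149.6 in tumor 2 (log2 fold change -0.91, SE 0.35, adjusted p = 0.547). *Ocln* and the apical mucin gene *Muc1* had -0.74 and -0.76 without passing an unadjusted p of 0.05, while *Cldn3*, *Cldn7* and *Tjp1* had -0.18, -0.08 and -0.26. *Wfdc2*, a secreted protease inhibitor gene, was the 1 luminal gene higher at that p, with 30.3 and 55.4 RPKM in tumor 1 and 32.0 and 61.4 in tumor 2 (log2 fold change 0.89, SE 0.37, adjusted p = 0.655).

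Among milk protein genes, 13 of 20 tested had a negative log2 fold change, as did 4838 of all 11966 tested genes. *Ltf*, the gene of lactoferrin, read 426 RPKM in P0 and 87.6 in P1 of tumor 1, and 486 and 240 in tumor 2 (log2 fold change -1.64, SE 0.37, adjusted p = 0.0507). *Csn2*, the gene of beta-casein, was at 137 and 79.3 RPKM in tumor 1 and 59.0 and 7.66 in tumor 2 (log2 fold change -1.79, SE 0.42, adjusted p = 0.0639). *Csn1s1*, the gene of alpha-S1-casein, had -0.99, at -0.30 in tumor 1 and -1.68 in tumor 2. These 3 of the 20 tested genes had an unadjusted p under 0.05, beside 1.1% of all tested genes that were lower at that p, and none was higher. *Csn3* and *Wfdc18* had -0.83 and -0.52, while *Trf*, the gene of transferrin, had 0.60 and the defense gene *Lcn2*, at 7113 to 17424 RPKM, had -0.07.

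**Figure D4:**
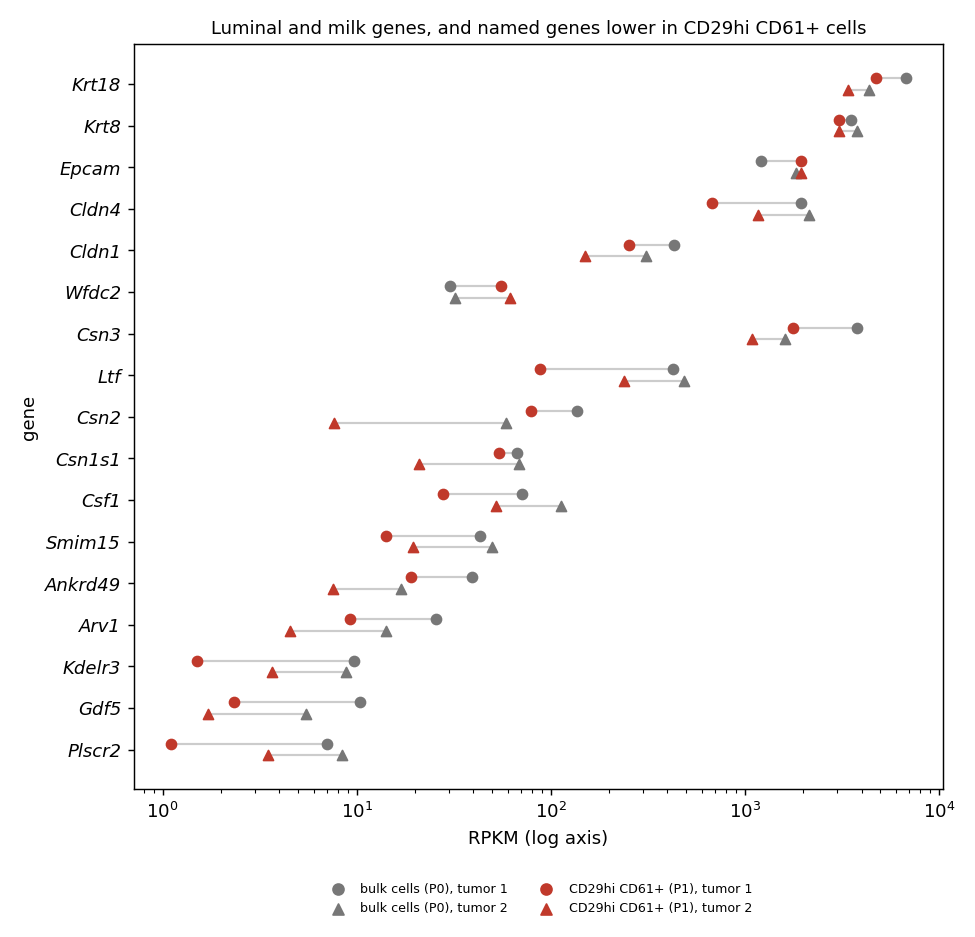
RPKM on a log axis of luminal genes (*Krt18* to *Wfdc2*), milk genes (*Csn3* to *Csn1s1*) and the other genes named as lower in P1, with P0 in grey, P1 in red, circles for tumor 1 and triangles for tumor 2. Every gene shown except *Epcam* and *Wfdc2* has both red points to the left of the grey points of the same tumor, while *Epcam* and *Wfdc2* have them to the right. The genes were picked and do not stand for their lists. Of the 31 tested luminal genes 17 had a positive log2 fold change, as did 7 of the 20 tested milk genes. The other genes were named for being lower in both tumors.

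No gene longer than a small RNA gene passed the adjusted p as lower. With the genes under 300 bp left out of the test, an alternative chosen after seeing the data, 66 genes were called higher and 7 lower, the latter being *Ltf*, *Csn2*, *Tbc1d22bos*, *Ndufc1*, *Pigf*, *Acot10* and *Lars2*. Among the 14 genes that were at least 2-fold lower in both tumors, had an unadjusted p under 0.05 and reached 5 RPKM in both P0 libraries, the 8 that are not small RNA genes were *Ltf*, *Kdelr3*, *Gdf5*, *Plscr2*, *Smim15*, *Arv1*, *Csf1* and *Ankrd49*. *Csf1*, which encodes the growth factor of macrophages, read 70.8 and 27.7 RPKM in P0 and P1 of tumor 1 and 112.9 and 52.4 in tumor 2 (log2 fold change -1.21, SE 0.36, adjusted p = 0.259). *Gdf5*, a ligand gene of the BMP family, read 10.4 and 2.32 in tumor 1 and 5.49 and 1.72 in tumor 2 (log2 fold change -1.51, SE 0.65, adjusted p = 0.682). *Kdelr3*, whose product returns proteins to the endoplasmic reticulum, and *Plscr2*, of the scramblase family, had -1.58 and -1.50. *Smim15*, *Arv1* and *Ankrd49* had -1.43, -1.41 and -1.03, the second being a gene of sterol handling in the endoplasmic reticulum.

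A further 4 of the called genes were on none of the lists. *Pla2g7*, which encodes the hydrolase that inactivates platelet-activating factor, rose from 2.68 to 98.1 RPKM in tumor 1 and from 19.7 to 53.1 in tumor 2 (log2 fold change 3.07, SE 0.53, adjusted p = 0.00503). *H19*, an imprinted noncoding RNA, had 1 read in P0 of tumor 1 and 866 in P1, and rose from 3.95 to 34.0 RPKM in tumor 2 (log2 fold change 2.94, SE 0.62, adjusted p = 0.0340). *Fgg*, the gene of the fibrinogen gamma chain, and *Lgals7*, the gene of galectin 7 of stratified epithelia, differed mainly in tumor 1. *Fgg* read 0.0544 and 135 RPKM in tumor 1 but 45.0 and 69.9 in tumor 2, and *Lgals7* 0.0463 and 57.0 in tumor 1 but 32.0 and 51.0 in tumor 2. Their differences in tumor 2 were 0.63 and 0.66 on the log2 scale, beside 7.01 and 5.79 in tumor 1, with adjusted p = 0.0172 and 0.0334 from limma.

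The called small RNA genes have few bases and few reads. Of 189 tested microRNA and small nucleolar RNA genes, 8 were called higher and 7 lower, beside 16 and 0 of the 11777 other tested genes. Over all tested genes the shares were 0.201% higher and 0.0585% lower. Only poly(A) RNA was sequenced, which does not measure mature microRNAs. The gene lengths worked back from the table equaled the RefSeq hairpin length (build GRCm38.p6) for all 13 of the 14 named microRNA genes found there, which shows the window in which reads were counted. The hairpins of *Mir24-1* (chr13:63301208-63301275, plus strand), *Mir3074-1* (chr13:63301199-63301283, minus strand), *Mir5121* (chr7:45126918-45126991, minus strand) and *Mir19b-1* (chr14:115044305-115044391, plus strand) are shown, with the mature microRNAs in capitals, since these windows carry the values that follow.
Mir24-1: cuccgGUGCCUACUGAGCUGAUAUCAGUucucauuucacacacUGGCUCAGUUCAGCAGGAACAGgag
Mir3074-1: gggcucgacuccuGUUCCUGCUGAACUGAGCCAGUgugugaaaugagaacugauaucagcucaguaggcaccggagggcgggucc
Mir5121: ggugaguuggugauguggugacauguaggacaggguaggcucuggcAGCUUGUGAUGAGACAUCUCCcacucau
Mir19b-1: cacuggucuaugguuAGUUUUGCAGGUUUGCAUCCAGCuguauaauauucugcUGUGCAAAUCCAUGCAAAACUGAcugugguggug

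All 68 bases of the *Mir24-1* hairpin lie, as their reverse complement, inside that of *Mir3074-1* on the other strand. Both genes had 0 reads in P0 of tumor 1, 9 in P0 of tumor 2, and 92 and 30 in P1, so these are the same values under 2 names, and the strand they came from cannot be told. *Mir24-1* was called (log2 fold change 3.16, SE 0.66, adjusted p = 0.0334) and *Mir3074-1* was not (adjusted p = 0.0507). *Mir5121* was the 1 called small RNA gene with many reads in every library, 587 and 3695 in tumor 1 and 428 and 1557 in tumor 2 (log2 fold change 1.98, SE 0.38, adjusted p = 0.0137). It lies within *Rpl13a*, a ribosomal protein gene, whose own log2 fold change was 0.78 (SE 0.36, adjusted p = 0.756). *Mir19b-1*, of the miR-17 to miR-92 cluster, had 232 and 0 reads in P0 and P1 of tumor 1 and 115 and 50 in tumor 2 (log2 fold change -3.77, SE 0.65, adjusted p = 0.00503).

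The other called small RNA genes were mostly at 0 reads in 1 library of tumor 1. *Mir1945* had no reads in either P0 library and 102 and 19 in P1, and *Mir7063* had 103 and 29 in P0 and none in either P1 library. *Mir1945* thus entered through P1 alone and *Mir7063* through P0 alone, so each could only appear in the direction in which it was called. *Mir6948*, *Snord35a*, *Snord49b*, *Mir140* and *Snora64* were higher and had no reads in P0 of tumor 1, where P1 had 137 to 360. *Mir1291*, *Mir7670*, *Snora24* and *Mir6925* were lower and had none in P1 of tumor 1, where P0 had 161 to 261, and *Mir677* had 1 read there against 263. In tumor 2, *Mir140* had 4 reads in P0 and 13 in P1, and *Mir7670* had 15 and 5. Larger genes were looked for in RefSeq around the 18 named small RNA genes. Genes whose symbols start with Snor, or with Mir or Gm and a digit, were left out, so hosts with such names were not examined. In this search 16 of the 18 had a spanning gene, and *Mir1945* and *Mir19b-1* had none. All 16 small RNA genes had a spanning gene that was tested. Of these spanning genes 0 were called, beside 0.201% of all tested genes called higher and 0.0585% called lower. With shares this small, 0 calls do not show that the spanning genes were unchanged. Their log2 fold changes ran from -0.52 to 1.17, with a lowest adjusted p of 0.756 from limma, that of *Rpl13a*. *Rpl13a* spans both *Mir5121* and *Snord35a*. It read 222 RPKM in P0 and 441 in P1 of tumor 1, and 244 and 366 in tumor 2. *Mir677* fell by 3.76 on the log2 scale, whereas *Atp5b*, the ATP synthase gene around it, had -0.21.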

How the data were processed

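Poly(A) RNA of sorted cells was made into libraries with the PrepX mRNA kit and sequenced on HiSeq instruments. Alignment by the authors used a pipeline from Illumina. The aligner, build and annotation are not given in the sources used here. The authors deposited RPKM per gene, scaled by gene length and by the reads counted in genes. The deposited table also holds, for P1 and P0, the authors' group means as a normalized signal, which served here only to work back whole reads (to within 0.01 reads for 14896 of 14897 genes), and fold changes and p-values that the authors computed between these populations, which were not used.

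P1 and P0 were compared with limma 3.58.1 (R 4.3.3) on log2(RPKM + 1), with an intensity trend and the tumor as a block, two-sided, with Benjamini-Hochberg adjustment over all 11966 tested genes. Each tumor gave both populations, and deviations from the group means correlated at 0.193 between P0 and P1 libraries of a tumor. The residual degree of freedom was 1 per gene, and the moderated total had a median of 25.7. The p-values thus rest mostly on the spread that limma shares between genes, and little on the spread of a single gene between these libraries. The procedure was tested on simulated data. Genes were named by rule, namely those with an adjusted p under 0.05 with this test or with voom, up to 15 per direction at least 2-fold apart in both tumors with an unadjusted p under 0.05 and 5 RPKM in the higher group, the sort and label markers, and the members of the lists that differed, with abundant members that did not. *Atp5b*, *Rpl13a* and list members shown for contrast were chosen after their values were seen. The members, lists and rules were chosen with earlier results of these data known. The alternatives were another pseudocount, other filters, no block, all 6 libraries, shifted libraries, voom on recovered reads and leaving out each library. Figures were made with Python 3.11.15 and matplotlib 3.10.9.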

Additional observations from a re-analysis of the deposited data

How the results depend on the processing

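The counts of calls depended on the settings. Genes higher and lower at an adjusted p under 0.05, 24 and 7 with the block, numbered 0 and 0 without the replicate block (smallest adjusted p 0.126), 0 and 0 with all 6 libraries and the block, 0 and 0 with a pseudocount of 0.1, 3 and 0 without a filter on low values, 50 and 14 with at least 5 RPKM in 2 libraries, 9 and 5 with libraries shifted to the same median, and 3 and 0 with voom on recovered reads. Chosen after seeing the data, genes of at least 300 bp gave 66 higher, among them all 16 longer called genes, and genes with reads in all 4 libraries gave 63. At an unadjusted p under 0.05 the counts of 603 and 132 became 274 and 53 without the replicate block, 339 and 77 with all 6 libraries, 317 and 68 with the other pseudocount, 398 higher with at least 5 RPKM, 210 lower with shifted libraries and 253 lower with voom. Genes at least 2-fold apart in both tumors, 209 and 34, became 382 and 98 with the other pseudocount, 97 and 16 with at least 5 RPKM, and 59 lower with shifted libraries. Leaving out 1 library left too few pairs for the block, and the lone library was assumed to vary like the others. Higher calls then ranged from 0 to 117 and lower from 0 to 4, and unadjusted counts from 68 to 1383 (147 without P1 of tumor 2, 220 without P0 of tumor 1) and from 23 to 369 (69 without P0 of tumor 1). The highest of these were without P0 of tumor 2, when P0 rested on the tumor 1 library with 3288 genes without reads, and the lowest unadjusted counts without P1 of tumor 1. All 31 called genes kept their sign in every alternative that tested them, which adds no support. Without the block, with all 6 libraries and under the other filters the fold change is the same by construction. The remaining alternatives reuse the same libraries on genes called for large differences. Of 260 values of the list medians over 20 lists, 41 moved by more than the spread between the tumors and 22 changed sign. *Itgb1* reversed to -0.087 without P0 of tumor 1, and *Itgb3* to -0.071 with shifted libraries, -0.016 with voom and -0.36 without P0 of tumor 2. Beyond what these settings change by construction, the cause was not tested.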
